A study of Mus musculus with 51 samples.

Results

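The collagen gene family of the mouse was followed through reprogramming of fibroblasts and in pluripotent reference lines. Every gene whose array symbol is Col, a number, a and a number was taken, which gave 37 of the 16593 genes on the array, measured by 59 probes. For each gene the probe of highest mean intensity over the 51 arrays was used. A probe was called detected on an array when the deposited detection p-value was under 0.05. By this rule 31 of the 37 genes were detected on at least 1 array, and 6 (Col4a3, Col4a4, Col6a6, Col9a3, Col13a1 and Col19a1) on none.

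The study profiled total RNA on Illumina mouse expression beadarrays. All samples carry the strain label rtTA Mouse, the reverse tetracycline transactivator that lets doxycycline switch on transgenes. Embryonic fibroblasts from day 15.5 embryos were reprogrammed with c-Myc, Oct4, Sox2 and Klf4 and kept in doxycycline, and 28 clonal lines were profiled on day 16, of which 6 are labelled F-class and 22 C-class; the labels do not say how a class was assigned. Clone 1, an F-class line, was profiled again on day 30. The fibroblast group holds the parental primary fibroblasts (replicate 1) and the secondary fibroblasts (replicate 2), and the latter also start a secondary reprogramming course with 1 array each on days 2, 5, 8, 11, 16 and 18. There were 2 arrays of doxycycline-independent induced pluripotent stem cells (iPSC) and 2 of embryonic stem cells (ESC). The first iPSC array is titled as a secondary and the second as a primary line, both named 1B like the secondary course. Another 2 lines are labelled Tet-Myc, each with doxycycline and after 48 h without it. F-class cells treated with an inhibitor labelled HDACi, which is not named further, gave 2 replicates at each of 0, 24 and 48 h. A clone is a single line and each array a single RNA sample, so the p-values speak only of the scatter among these arrays, part of which may be technical. In such bulk samples fewer cells of a type and less RNA per cell cannot be told apart.

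Collagens are secreted or membrane proteins built from 3 chains wound into a triple helix of repeated glycine-containing triplets. Fibrillar collagens (types I, II, III, V and XI) give connective tissue its tensile strength, type IV forms the network of basement membranes, type VI forms beaded filaments around cells, and fibril-associated types decorate fibrils. Fibroblasts are a main source of types I, III, V and VI, while epithelia and early embryonic cells are known for type IV and XVIII, the collagens of the basement membrane.

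All levels below are normalized log2 intensities, and no probe's level is set against another's, because probes differ in their binding. The fibroblast arrays detected 23 and 27 collagen genes, the iPSC arrays 22 each, and the secondary course 17 to 23, with 23 on day 8. It was 12 to 17 in the F-class clones and 11 to 18 in the C-class clones, with medians of 14.5 and 15.5. The ESC arrays detected 21 and 16, the Tet-Myc arrays 7 and 10 with doxycycline and 15 and 12 without it. Between 46.6 and 53.4% of all probes were detected per array. Only Col5a1, Col4a1 and Col18a1 were detected on all 51 arrays.

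**Figure D1:**
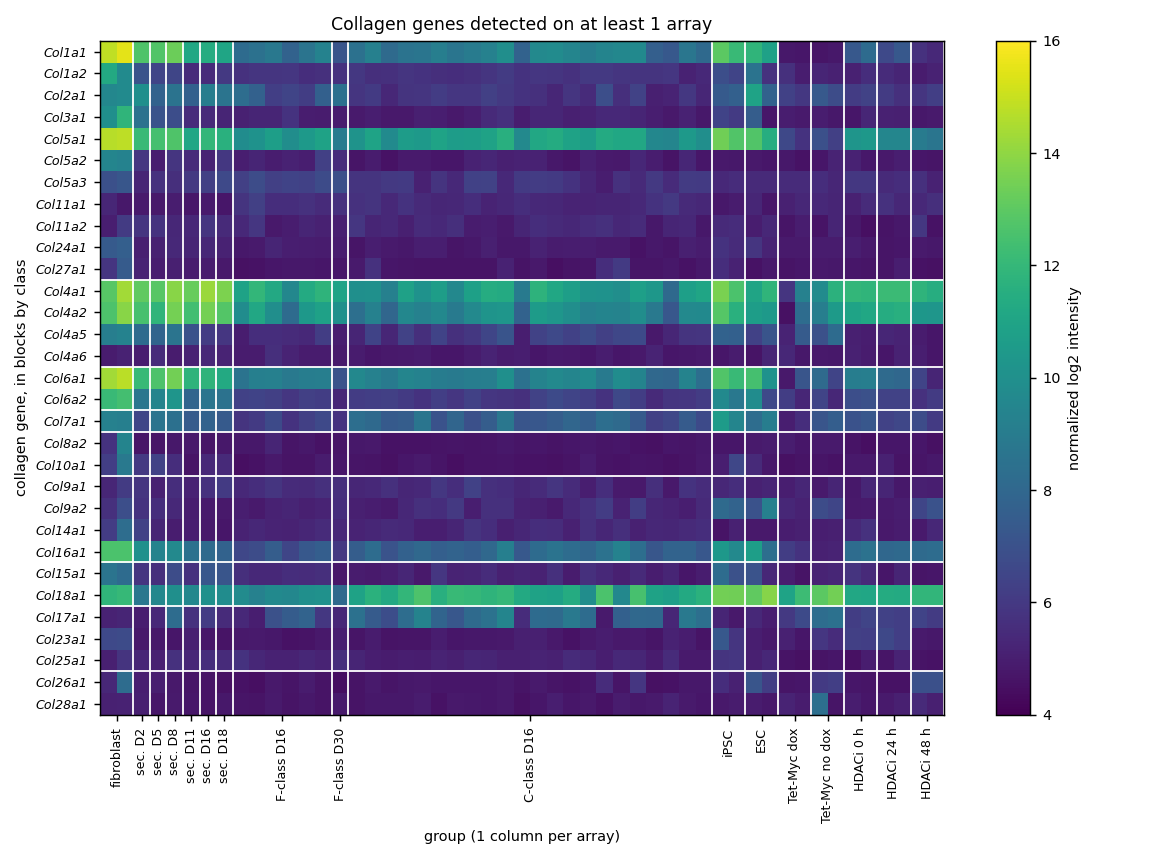
Normalized log2 intensity of the 31 collagen genes detected on at least 1 array (rows) on each of the 51 arrays (columns, ordered by group). The 2 fibroblast arrays are bright for most genes, the 28 clones are dim except for a few genes such as Col5a1, Col4a1 and Col18a1, and the iPSC and ESC arrays lie between.

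Against the fibroblasts, most of the measurable collagens were lower in every reprogrammed or pluripotent group. Genes had to pass a filter of detection on at least 2 arrays of the fit, which 11046 did. The test was limma's moderated test with Benjamini-Hochberg adjustment over these genes, called at an adjusted p under 0.05. All groups of the fit shared 1 estimate of the spread, and most of its arrays are C-class clones. Of the 29 collagens that passed the filter, 23 were lower and 1 higher in the F-class clones, where 27.2% of all tested genes were lower and 31.5% higher (58.7% either way). In the C-class clones 23 were lower and 1 higher, against 28.5% and 31.6% of all genes (60% either way). In the iPSC 17 were lower and 1 higher (22.5% and 22.7%, 45.2% either way), and in the ESC 19 were lower and 1 higher (23.8% and 24.7%, 48.5% either way). The median log2 difference of the tested collagens was -2.58 in F-class clones and -2.88 in C-class ones, -1.50 in iPSC and -2.17 in ESC, beside medians of all tested genes between -0.04 and 0.10. The same 2 fibroblast arrays enter all 4 comparisons, and a gene could pass the filter through its fibroblast level alone, so the counts describe the tested genes and not the whole family. The fibroblast markers other than collagens moved with these values: the mean of 10 such genes was 11.5 and 11.6 in the fibroblasts, 6.94 to 7.72 in F-class clones, 6.92 to 8.38 in C-class clones, 9.06 and 9.07 in iPSC and 9.81 and 7.70 in ESC. Their part in the collagen values was not tested.

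**Figure D2:**
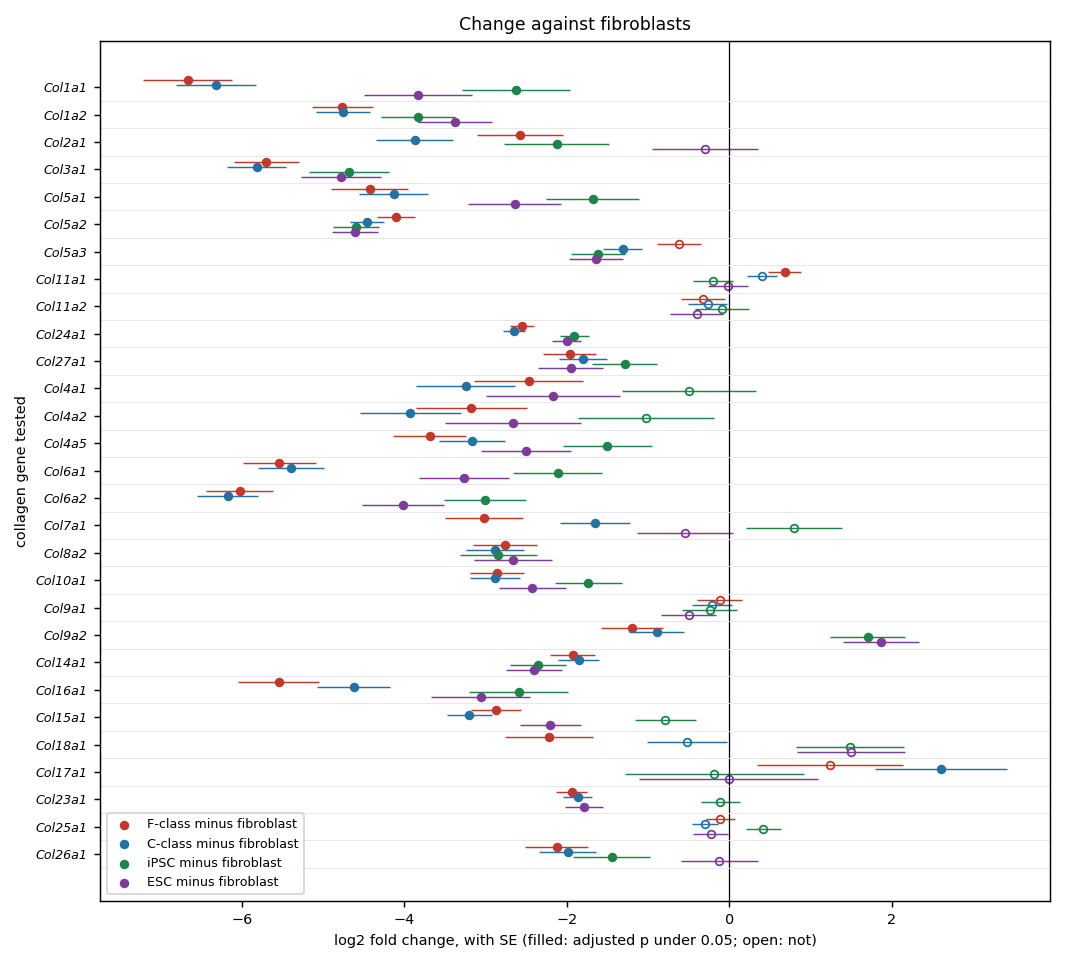
Log2 difference from the fibroblasts (x axis) with its standard error for the 29 collagen genes tested, in F-class clones, C-class clones, iPSC and ESC; filled points passed an adjusted p under 0.05. Most points lie left of 0, and the clones lie farther left than iPSC and ESC for Col1a1, Col5a1, Col6a1, Col6a2 and Col16a1.

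Most fibrillar genes were lower than in the fibroblasts. Of the 11 genes of this class, all tested, 8 were lower in F-class clones and 9 in C-class ones. Col1a1, the major chain of type I collagen, read 14.85 and 15.53 in the fibroblasts, 8.18, 8.46, 8.81, 7.77, 8.60 and 9.30 in F-class clones 1, 2, 6, 7, 13 and 27, 12.99 and 12.14 in iPSC and 11.87 and 10.85 in ESC. The C-class clones ran from 7.33 through a median of 9.03 to 9.91, so no clone of either class reached the lowest pluripotent array. The F-class difference from fibroblasts was -6.67 ± 0.54 (SE), with 2 fibroblast arrays and 6 clones and a limma adjusted p of 4.19e-12. In iPSC it was -2.63 ± 0.67, or 6.17-fold lower (limma adjusted p = 0.00167).

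Col1a2, the partner chain of type I, stood at 11.29 and 9.74 in the fibroblasts and at 5.55 to 5.88 in the F-class clones, 27.2-fold lower. It was also 27.0-fold lower in C-class clones, 14.3-fold in iPSC and 10.4-fold in ESC. In the clones Col1a2 lay near the detection limit, so its clone folds are limited by background signal. It was undetected in F-class clone 1 and detected in 19 of 22 C-class clones. Its fibroblast arrays differed by 1.55, and the ESC arrays by 2.89 (8.58 and 5.69). Col3a1, the chain of type III collagen of soft tissues, was 9.99 and 11.83 in the fibroblasts and detected in only 1 of 6 F-class and 1 of 22 C-class clones. It was detected on both iPSC arrays (6.42 and 6.03) and on 1 of 2 ESC arrays (7.54, against 4.72). The fitted fold was 25.7 lower in iPSC and 27.5 in ESC, and 52.0 for the F-class and 56.5 for the C-class, where it is set almost wholly against undetected signals. The second probe of Col3a1 gave the same direction (10.5 in fibroblasts, 5.07 in F-class clones).

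Col5a1 and Col5a2 are chains of type V collagen, which sits inside type I fibrils and sets their width. Col5a1 was the fibrillar chain detected on every array: 14.70 and 14.81 in the fibroblasts, 9.82 to 10.90 in F-class clones, 9.48 to 11.59 in C-class clones, 13.41 and 12.73 in iPSC and 12.73 and 11.49 in ESC. This was 21.6-fold lower in F-class, 17.6-fold in C-class, 3.21-fold in iPSC and 6.25-fold in ESC. Col5a2 was 9.47 and 9.31 in the fibroblasts, was detected in 1 F-class clone (clone 27, 6.25) and was not detected in any C-class clone, iPSC or ESC array. Where a gene is undetected in a whole group its fold is a bound, set against the lowest signal among detected probes on each array. On that basis Col5a2 was at least 14.6-fold lower in C-class clones, at least 16.2-fold in iPSC and at least 16.8-fold in ESC. Col5a1 was thus detected, and Col5a2 not, in all 22 C-class clones and on the 4 iPSC and ESC arrays. In C-class clones this does not show unlike falls, since the Col5a2 bound (14.6-fold) is under the Col5a1 fold (17.6-fold).

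Col2a1, the chain of the cartilage collagen type II, read 9.57 and 9.76 in the fibroblasts and 10.98 and 7.75 in ESC, which did not pass the test (-0.30 ± 0.65, limma adjusted p = 0.754). It was 5.97-fold lower in F-class clones, 14.7-fold in C-class clones and 4.36-fold in iPSC. Chondrocyte markers, 5 genes, averaged 5.97 to 6.12 in the fibroblasts, 4.95 to 5.20 in F-class clones and 4.93 to 5.33 in C-class clones. In iPSC they averaged 4.97 to 5.19 and in ESC 5.04 to 5.43. The part of these markers was not tested. Of the remaining fibrillar genes, Col24a1 was at least 3.74-fold lower in F-class clones and Col27a1 at least 2.06-fold. Col5a3 passed in C-class clones (2.49-fold lower), iPSC (3.06-fold) and ESC (3.12-fold) but not in F-class clones (limma adjusted p = 0.0511). Col11a2 passed in none of the 4 groups. Col11a1 exceeded the fibroblast level at least 1.16-fold in F-class clones, but another probe of the gene went the opposite way, from 7.41 in the fibroblasts to 4.91 in F-class clones, so its direction is uncertain.

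The beaded-filament chains Col6a1 and Col6a2 were lower in all 4 groups. Col6a1 read 14.34 and 14.75 in the fibroblasts, 8.58 to 9.22 in F-class clones, 7.98 to 9.97 in C-class clones, 12.75 and 12.11 in iPSC and 12.45 and 10.11 in ESC. The folds were 46.6 lower in F-class, 42.1 in C-class, 4.33 in iPSC and 9.64 in ESC. Col6a2 was 65.3-fold lower in F-class clones and 72.5-fold in C-class ones, 8.04-fold in iPSC and 16.2-fold in ESC. The third chain on the array, Col6a6, was not detected anywhere.

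Among the fibril-associated collagens, Col16a1, a minor component of fibril surfaces, was 12.61 and 12.60 in the fibroblasts and 6.50 to 7.58 in F-class clones. It was 46.9-fold lower in F-class, 24.7-fold in C-class, 6.03-fold in iPSC and 8.34-fold in ESC. Col14a1 (6.12 and 8.29 in the fibroblasts) was at least 3.02-fold lower in F-class clones and undetected in iPSC and ESC. The short-chain collagens were low-level fibroblast signals: Col8a2 was detected on no arrays other than the fibroblasts (5.74 and 9.39), and Col10a1, the collagen of hypertrophic cartilage, read 6.22 and 8.85 there and was undetected in all 28 clones. Col8a2 was at least 3.86-fold and Col10a1 at least 3.79-fold lower in F-class clones.

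The type IV chains form the basement membrane network. Col4a1 and Col4a2 encode its most widespread chains and lie head to head on chromosome 8, so that a single stretch of DNA serves as the start region of both. The RefSeq start windows, 250 bases before to 50 after each annotated start on GRCm38.p6, are chr8:11312777-11313076 on the minus strand for Col4a1 and chr8:11312555-11312854 on the plus strand for Col4a2. They overlap over 78 bases, chr8:11312777-11312854, and the annotated starts are 21 bases apart. The windows are shown because the levels of the 2 chains were compared over clones and lines; the capitals mark the shared bases, read on opposite strands.
Col4a1: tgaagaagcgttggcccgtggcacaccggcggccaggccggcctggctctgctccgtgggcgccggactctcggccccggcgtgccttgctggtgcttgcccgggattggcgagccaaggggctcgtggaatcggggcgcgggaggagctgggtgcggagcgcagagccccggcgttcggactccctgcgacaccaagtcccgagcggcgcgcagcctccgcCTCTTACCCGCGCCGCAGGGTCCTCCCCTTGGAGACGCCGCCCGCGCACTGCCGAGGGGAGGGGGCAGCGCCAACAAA
Col4a2: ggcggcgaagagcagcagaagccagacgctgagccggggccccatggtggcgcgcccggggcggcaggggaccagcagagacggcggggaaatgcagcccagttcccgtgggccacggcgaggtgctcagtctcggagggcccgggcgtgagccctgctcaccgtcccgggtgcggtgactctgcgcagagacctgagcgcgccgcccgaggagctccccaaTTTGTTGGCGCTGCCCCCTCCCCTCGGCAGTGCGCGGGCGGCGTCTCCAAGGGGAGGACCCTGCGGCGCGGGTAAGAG
Both windows are rich in G and C (74.0% and 73.7%). The letters GGGCGG or their reverse CCGCCC, the GC box, occur 1 time in the Col4a1 window and 3 times in the Col4a2 window, and CCAAT or ATTGG 1 time in each. Over the 33 RefSeq windows of the 30 collagen genes that have one, 60.6% hold a GC box and 36.4% the CCAAT letters. The shares over all 32851 windows are 35.7% and 37.4%. A match is a string of letters in these windows and no evidence of binding.

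Col4a1 read 12.87 and 14.34 in the fibroblasts, 9.54 to 11.94 in F-class clones, 13.61 and 12.62 in iPSC and 11.02 and 11.85 in ESC. It was 5.54-fold lower in F-class (limma adjusted p = 0.00213), 9.50-fold in C-class and 4.51-fold in ESC, while the iPSC did not pass the test (-0.50 ± 0.82). Col4a2 gave 9.04-fold in F-class, 15.2-fold in C-class and 6.33-fold in ESC, and again no call in iPSC (-1.03 ± 0.84). Col4a5, an X-linked chain of specialized basement membranes, was 12.9-fold lower in F-class clones and 9.02-fold in C-class ones. Of the other type IV chains, Col4a6 was detected on 2 arrays and Col4a3 and Col4a4 on none.

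Col18a1, whose C-terminal fragment is endostatin, read 11.86 and 12.04 in the fibroblasts and 13.46, 13.41, 13.07 and 13.84 in the iPSC and ESC, differences of 1.48 ± 0.66 and 1.50 ± 0.66 that did not pass (limma adjusted p = 0.0683 and 0.0614). In the C-class clones it ran from 9.61 through 11.46 to 12.63 and did not pass (-0.52 ± 0.49), and in the F-class clones it was 4.67-fold lower. Col17a1, the transmembrane collagen of epithelial hemidesmosomes, was undetected in the fibroblasts (5.17 and 5.23) and detected in 19 of 22 C-class clones, where it was at least 4.92-fold higher (limma adjusted p = 0.00623). All 3 Col17a1 probes were higher in C-class clones than in the fibroblasts. The epithelial marker mean, over 5 genes, was 5.24 and 5.26 in the fibroblasts, 7.05 to 10.5 in F-class and 10.0 to 12.2 in C-class clones; its part in Col17a1 was not tested.

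Col9a2, a chain of the fibril-associated type IX of cartilage, was the only collagen called higher in iPSC and in ESC. It read 5.65 and 6.90 in the fibroblasts, 8.13 and 7.83 in iPSC and 7.04 and 9.24 in ESC, which was 3.26-fold and 3.65-fold higher (limma adjusted p = 0.00313 and 0.00115). It was undetected in all 6 F-class clones. Col7a1, the anchoring fibril collagen that ties epithelial basement membrane to stroma, was 8.11-fold lower in F-class clones and 3.15-fold in C-class ones and did not pass in iPSC (10.57 and 9.46) or ESC. Col15a1, a basement membrane relative of Col18a1, was 7.32-fold lower in F-class, 9.20-fold in C-class clones and 4.60-fold in ESC, with no call in iPSC (8.22 and 6.99). Col23a1, a transmembrane collagen, kept 7.31 and 5.85 in iPSC beside 6.66 and 6.73 in the fibroblasts, and was undetected in all clones and both ESC arrays. Col9a1, Col11a2 and Col25a1 passed in none of the 4 comparisons, and Col28a1 did not enter them because it was detected on none of their arrays.

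**Figure D3:**
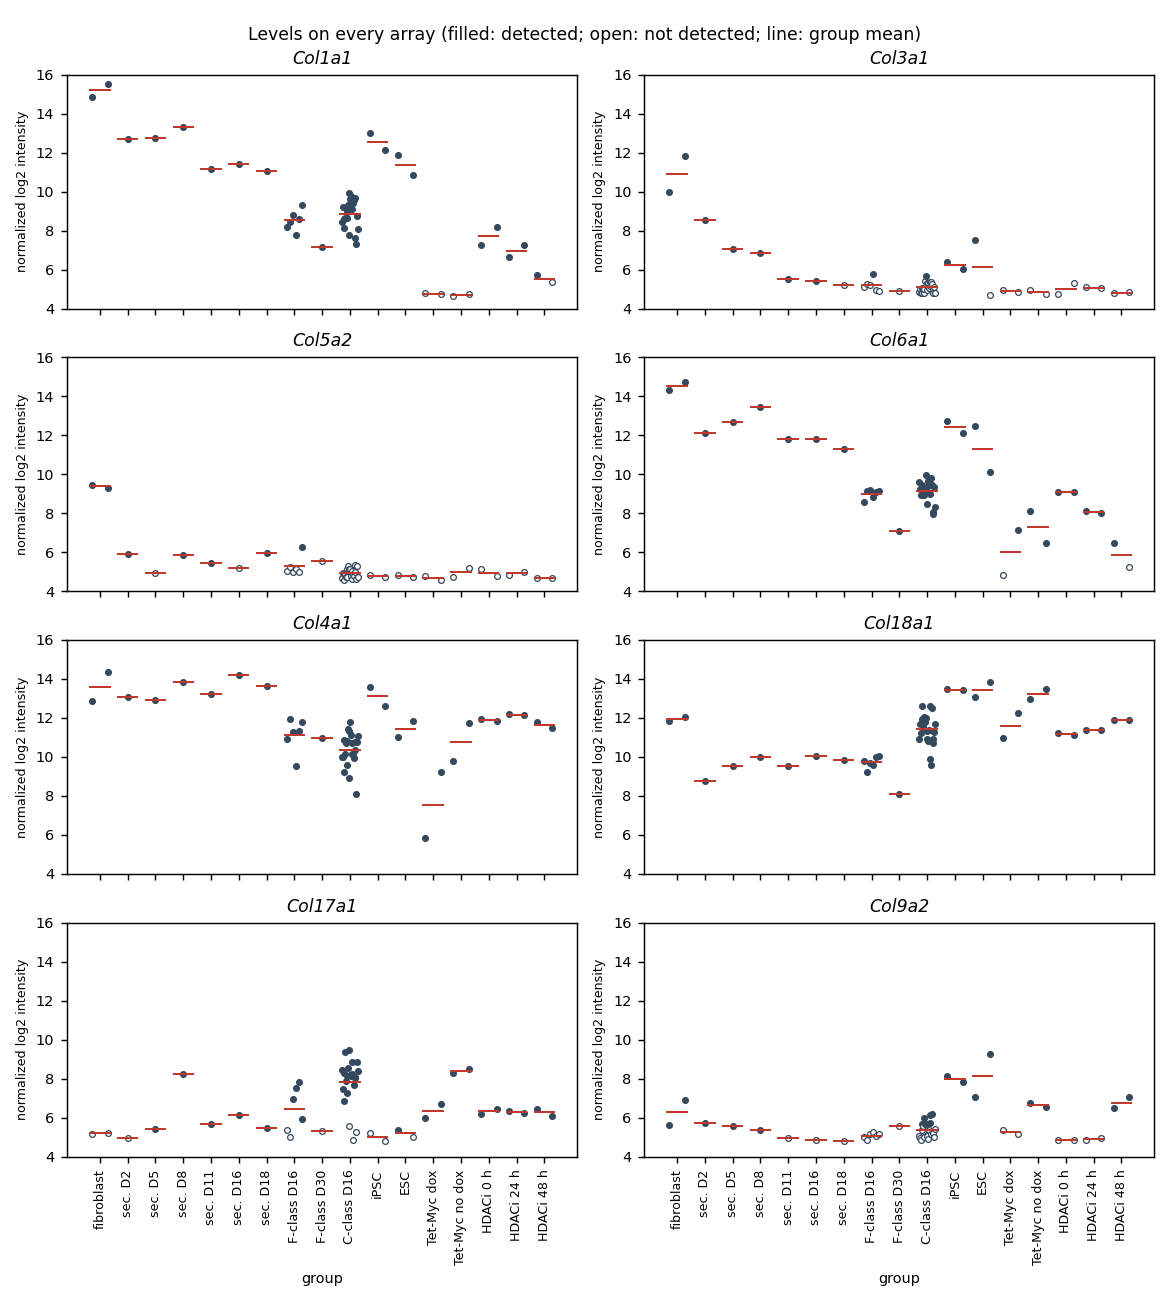
Normalized log2 intensity (y axis) of 8 collagen genes on every array, by group; filled points were detected, open points were not, and lines mark group means. Col1a1, Col3a1, Col5a2 and Col6a1 are highest in the fibroblasts, Col4a1 and Col18a1 stay detected throughout, Col17a1 is highest in C-class clones and Tet-Myc lines without doxycycline, and Col9a2 in iPSC and ESC.

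The 2 fibroblast arrays are different preparations, and 10 of the 27 collagens detected on either were over 2-fold higher in the secondary fibroblasts (Col3a1, Col4a1, Col4a2, Col8a2, Col9a2, Col10a1, Col11a2, Col14a1, Col26a1 and Col27a1), beside 8.07% of all genes, and 1 over 2-fold lower (Col1a2), beside 7.35%. The secondary array also had the higher macrophage marker mean (7.96 against 5.87 over 8 genes), and the part of this in the collagen values was not tested. With the primary fibroblasts alone, whose file columns have the number format of the primary clones, 19 collagens were lower in F-class clones and 20 in C-class clones, and none higher. Without the secondary array 4 F-class calls ended, Col4a1 (-1.74), Col9a2 (-0.57), Col26a1 (-0.66) and Col11a1 (0.42), and Col8a2 no longer entered the fit. For C-class clones it ended Col9a2 (-0.27), Col26a1 (-0.53) and Col17a1 (2.64), and Col17a1 also lost its call without the primary array (2.58). The F-class and C-class folds of Col1a2, Col3a1, Col4a1, Col4a2, Col9a2, Col10a1, Col14a1, Col26a1 and Col27a1 moved by over 1.5 times without either fibroblast array, for Col10a1 in F-class clones between 2.92 and 18.09. The ESC folds of Col1a2, Col3a1, Col5a1, Col6a1, Col6a2, Col9a2, Col15a1 and Col16a1 against fibroblasts moved by over 1.5 times when either ESC array was left out. Without the first and the second, Col6a2 was 49.4-fold and 5.31-fold lower, Col3a1 72.9-fold and 10.3-fold, Col1a2 28.4-fold and 3.82-fold, Col6a1 21.7-fold and 4.28-fold, Col16a1 18.95-fold and 3.67-fold, Col5a1 9.60-fold and 4.06-fold and Col15a1 8.38-fold and 2.53-fold. In iPSC the fold of Col3a1 was 48.7 without the primary and 13.6 without the secondary fibroblasts, and that of Col1a2 8.36 and 24.4. With the secondary fibroblasts alone, whose columns share the format of the iPSC, 14 collagens were lower in iPSC and none higher, and Col9a2 lost its call there (1.08) and in ESC (1.24). Calls in iPSC also ended for Col5a1 (without either fibroblast array or the second iPSC array, -1.34 to -1.74), for Col4a5 without any 1 of the 4 arrays (-1.40 to -1.60) and for Col2a1 without the first iPSC array (-1.99). In ESC, Col4a1 lost its call without the secondary fibroblasts (-1.44) or the first ESC array (-1.76), Col4a2 without the secondary fibroblasts (-2.05) or the second ESC array (-2.56), and Col9a2 without the second ESC array (0.77). With number format as a term in the fit, Col9a2 lost its calls in F-class clones (-0.33), C-class clones (-0.03) and iPSC (0.84), Col11a1 in F-class clones (0.41), and Col2a1 (-1.36) and Col5a1 (-1.40) in iPSC.

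Genes that make, cross-link, degrade and bind collagen were read from lists of pathway members. For synthesis and folding (the prolyl and lysyl hydroxylases, Serpinh1 and relatives), 13 of 15 tested genes were lower in F-class clones and 12 in C-class ones than in the fibroblasts, 10 in iPSC and 11 in ESC, and none was higher. The shares of all tested genes that were lower were 27.2%, 28.5%, 22.5% and 23.8%, and the same shares are the background of the other lists. Of the processing and cross-linking genes, 7 of 8 were lower in F-class clones, with Pcolce, an enhancer of procollagen cleavage, 38.1-fold, and the lysyl oxidases Lox and Loxl1 37-fold and 34.1-fold lower. Its relative Pcolce2 was the exception, 10.7-fold higher in F-class clones. Of the degradation genes and their inhibitors, 8 of 10 were lower, among them the gelatinase Mmp2 (52.4-fold), the collagenolytic cathepsin Ctsk (36.3-fold) and the inhibitor Timp2 (34.4-fold), and Mmp1a was 1.63-fold higher. All 5 tested collagen receptor genes were lower in both classes, Itga11, the integrin chain of fibroblasts for type I collagen, by 55.4-fold in F-class clones and Itgb1 by 2.61-fold.

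Between the classes on day 16, 4 collagens were lower and 3 higher in the F-class, 7 of 29 tested, beside 24.7% of all tested genes (10.6% lower, 14.1% higher). The tested collagens had a median difference of -0.01, against 0.03 for all genes. The lower ones were Col18a1, Col7a1, Col17a1 and Col16a1, and the share called was close to that of all genes. For none of the 7 genes were the clones of the 2 classes fully apart.

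Col18a1 read 9.78, 9.25, 9.71, 9.56, 9.99 and 10.05 in the 6 F-class clones and was above the highest of them in 20 of 22 C-class clones. The F-class mean was 3.26-fold lower (-1.70 ± 0.31, limma adjusted p = 0.000121), and the other Col18a1 probe detected on most arrays had the same direction (5.39 against 6.66). Col7a1 was 5.76 to 6.72 in F-class clones and above that range in 19 C-class clones, 2.58-fold lower in F-class (limma adjusted p = 0.000403). Col16a1 was 6.50 to 7.58 in F-class clones and above it in 17 C-class clones, 1.90-fold lower in F-class (limma adjusted p = 0.0147). Col17a1 was uneven within both classes. In F-class it read 5.39, 5.01 and 5.95 in clones 1, 2 and 27 and 6.96, 7.51 and 7.83 in clones 6, 7 and 13, and in C-class it ran from 4.86 in clone 21 through 8.15 to 9.46 in clone 15. Its mean was 2.58-fold lower in F-class (-1.37 ± 0.51, limma adjusted p = 0.0454). The epithelial marker mean was likewise 7.05 to 10.5 in the F-class and 10.0 to 12.2 in the C-class, and its part was not tested.

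The 3 collagens higher in F-class clones were fibrillar. Col2a1 read 8.30, 7.71, 6.22, 6.46, 6.17 and 7.66 in F-class clones and was below the lowest of them in 19 of 22 C-class clones; it was 2.46-fold higher (1.30 ± 0.30, limma adjusted p = 0.00167), and its second probe had the same direction (6.58 against 5.49). Col5a3, a minor type V chain, was 6.26 to 6.79 in F-class clones, with 20 C-class clones below, and 1.62-fold higher (limma adjusted p = 0.00102). Col5a2 differed by 0.36 ± 0.13 (limma adjusted p = 0.0459), with detection in clone 27 only, so no fold is given. Col1a1, Col5a1, Col6a1, Col4a1 and Col4a2 did not pass. Leaving out 1 F-class clone ended the call of Col17a1 (without clone 1, 2, 6 or 27, differences -1.08 to -1.48), of Col16a1 (without clone 1 or 7, -0.83 and -0.81) and of Col5a2 (without clone 2, 7 or 27, 0.16 to 0.38). Col18a1, Col7a1, Col2a1 and Col5a3 kept theirs in all 6 such fits. Col17a1 also lost its call with only the 2 classes in the fit or without the filter on detection, and Col5a2 without the filter, with an offset of 50 or under the other normalizations.

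The pathway genes differed between the classes in 1 direction for synthesis. Of 15 tested synthesis and folding genes, 7 were higher in F-class clones and none lower, beside 14.1% and 10.6% of all genes, among them the prolyl 3-hydroxylases P3h1 (1.92-fold, limma adjusted p = 4.58e-05) and P3h3 (1.83-fold) and the prolyl 4-hydroxylase chains P4ha2 (1.87-fold) and P4ha1 (1.72-fold). Of 10 degradation genes 3 were lower in F-class clones, the collagenase Mmp13 (2.91-fold), Timp2 (2.37-fold) and Mmp14 (1.86-fold), and none was higher. Of 8 processing genes 2 were lower and 1 higher, with Pcolce 2.39-fold lower and Pcolce2 1.65-fold higher. Of 5 receptor genes 2 were lower and none higher.

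Within the 22 C-class clones, chains that assemble into 1 molecule were compared over clones. Col4a1 ran from 8.12 (clone 25) through 10.52 to 11.77 (clone 17), and Col4a2 from 7.25 through 9.49 to 10.56 in the same clones. Their Pearson r was 0.948 and Spearman rho 0.914, each with a permutation p of 1e-05, the smallest that 100000 permutations give, and 3e-05 after adjustment over the 3 pairs compared. Without the 2 clones farthest from the Col4a1 median, r was 0.902. Col6a1 and Col6a2 had r = 0.527 (permutation p = 0.0113, adjusted 0.017) and rho = 0.449 (permutation p = 0.0371, adjusted 0.0556). Without the 2 clones farthest from the Col6a1 median, r was lower, 0.353, and was not tested. Col1a1 and Col1a2 had r = 0.259 (permutation p = 0.246, adjusted 0.246) and rho = 0.276 (p = 0.212, adjusted 0.212), and r was 0.451 without 2 clones. Clones share array processing, whose part was not removed beyond the quantile normalization of all arrays. Col1a2 varied over only 0.92 in these clones (5.17 to 6.09), near the detection limit, and was detected in 19 of 22. Its r therefore cannot show whether the type I chains vary together. Col6a2 was also low (5.43 to 6.71), so the 3 pairs are not compared at like signal.

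**Figure D4:**
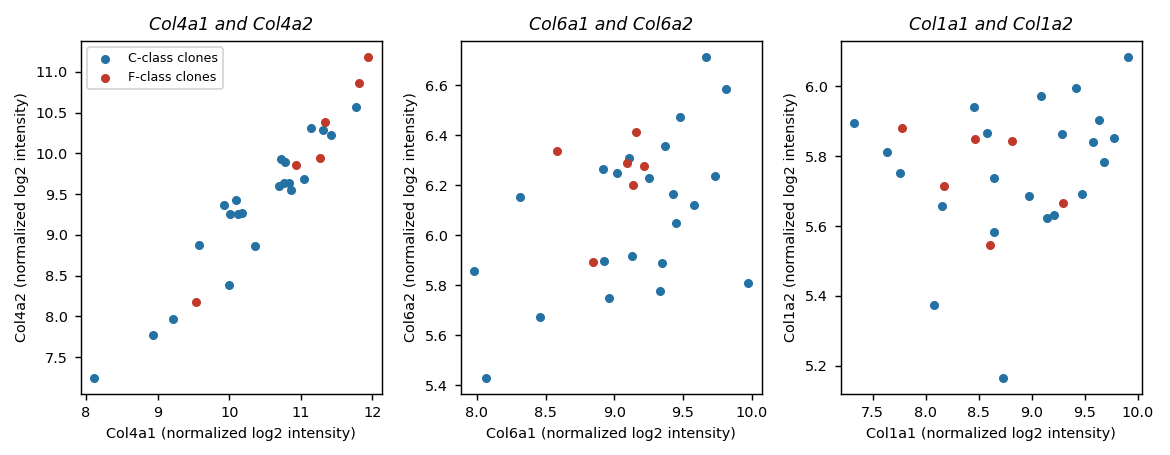
Each point is 1 clone, 22 C-class and 6 F-class, with the normalized log2 intensity of 1 chain on the x axis and of its partner on the y axis, for Col4a1 and Col4a2, Col6a1 and Col6a2, and Col1a1 and Col1a2. The type IV chains lie along a line (r = 0.948 over C-class clones), the type VI chains scatter more and the type I chains show little relation. Col1a2 lies near the detection limit, where a relation could not be seen.

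Some clones were at the same end for several genes. Clone 25 had the lowest C-class value of Col1a1, Col5a1, Col6a1, Col4a1 and Col4a2 (7.33, 9.48, 7.98, 8.12 and 7.25) and the fewest detected collagens of any clone, 11. Clone 15 had the highest of Col1a1, Col5a1, Col6a1, Col7a1 and Col17a1 (9.91, 11.59, 9.97, 8.74 and 9.46), and 18 detected, as had clone 14. Clone 15 also had the highest C-class fibroblast and macrophage marker means (8.38 and 7.09), and 52.19% of its probes were detected. In clone 25 the fibroblast marker mean was 7.45, where the lowest of the class was 6.92. The part of these was not tested. Collagens with the widest range over C-class clones were Col17a1 (4.60), Col4a1 (3.65), Col4a2 (3.31) and Col18a1 (3.01).

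Against the ESC the clones remained below for type I, II, VI, IX and XVIII chains. Of 29 tested collagens, 13 were lower and 2 higher in F-class clones (22.5% and 25.4% of all tested genes, 48% either way), and 14 lower and 1 higher in C-class clones (22.3% and 22.8%, 45.1% either way). The median log2 differences were -0.56 and -1.0, against 0.05 and 0.03 over all genes. Col18a1 was 13.2-fold lower in F-class clones and 4.06-fold in C-class ones than in the ESC arrays (13.07 and 13.84). Col9a2 was at least 5.77-fold lower in F-class clones and 6.79-fold in C-class ones, and Col1a1 7.16-fold and 5.62-fold. Col2a1 was 4.86-fold lower in F-class clones and 12.0-fold in C-class ones, and Col7a1 5.58-fold and 2.17-fold. Col16a1 was 5.62-fold lower in F-class clones. Col26a1, a small secreted collagen, was at least 2.08-fold and 3.65-fold lower. The higher genes were Col5a3 (2.03-fold) and Col11a1 (1.62-fold) in F-class and Col17a1 (6.15-fold) in C-class clones.

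Many of these rest on the first ESC array. It exceeded the second over 2-fold in 9 of 22 detected collagens (10.9% of all genes did), namely Col1a1, Col1a2, Col2a1, Col3a1, Col5a1, Col6a1, Col6a2, Col15a1 and Col16a1, and was below it in Col9a2. Its fibroblast marker mean was 9.81 against 7.70 and its macrophage marker mean 9.68 against 6.03; their part was not tested, and the columns of the 2 ESC arrays have different number formats. Without it 8 collagens passed for F-class (2 higher, 6 lower) and 6 for C-class clones (1 higher, 5 lower). Col1a2 then stood at 0.06 in F-class clones and 0.07 in C-class ones and Col3a1 at 0.37 in C-class clones, all with the opposite sign. In F-class clones Col16a1 (-1.31), Col2a1 (-0.67), Col5a1 (-1.17), Col6a1 (-1.10) and Col6a2 (-0.40) lost their calls without it. In C-class clones Col5a1 (-0.87), Col6a1 (-0.96), Col6a2 (-0.55), Col16a1 (-0.38), Col7a1 (-1.50) and Col17a1 (2.79) lost theirs, and without the second ESC array Col18a1 (-1.64), Col17a1 (2.45) and Col7a1 (-0.73) did, so Col17a1 and Col7a1 passed only with both ESC arrays. For F-class clones, Col11a1 (0.42) and Col4a5 (-0.80) lost theirs without the second ESC array, and also with number format as a term (0.42 and -0.94). With that term Col7a1 lost its C-class call too (-0.95). Without the first and the second ESC array, Col2a1 was 3.90-fold and 36.6-fold lower in C-class clones. Col9a2 was 14.5-fold and 3.17-fold lower in C-class clones, and by the fit 17.9-fold and 3.90-fold in F-class clones, where it was undetected.

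Between iPSC and ESC only 2 collagens passed, both higher in iPSC, beside 8.15% of all genes (3.68% higher, 4.47% lower). Col23a1 was at least 2.40-fold higher (limma adjusted p = 1e-05), since it was undetected on both ESC arrays. Col15a1 read 8.22 and 6.99 in iPSC and 7.06 and 5.33 in ESC, so the groups overlapped; it was 2.67-fold higher (limma adjusted p = 0.0165). With the spread taken from the 4 arrays of these groups alone neither passed, and Col15a1 lost its call without the first iPSC array (0.80) or the second ESC array (0.55). The first iPSC array exceeded the second over 2-fold in 4 of 24 detected collagens (Col4a2, Col7a1, Col15a1 and Col23a1), beside 1.76% of all genes, and was below it in Col10a1, beside 1.03%. The fold of Col23a1 was 1.93 without the first and 5.30 without the second iPSC array. The first array is of the secondary and the second of the primary line, so line origin and array scatter cannot be told apart. At an unadjusted p under 0.05, 7 collagens differed between iPSC and ESC, and the share of all genes at that threshold was not computed.

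The secondary course had 1 array a day and no test. By day 2, 23 of 27 detected collagens were over 2-fold below the secondary fibroblasts (14.6% of all genes) and none was over 2-fold above. On days 5, 8, 11, 16 and 18 the counts were 23, 20, 24, 19 and 22 of 28 or 29, beside 15.8, 15.1, 17.9, 18 and 19% of all genes. A gene counted when detected on either array compared, and day 0 detected 27 collagens against 20 on day 2. A gene that entered through day 0 alone could hardly be higher later, so the counts lean towards lower. The genes differed in course. Col3a1 went stepwise from 11.83 through 8.54, 7.08, 6.84, 5.50 and 5.44 to 5.23. Col1a1 was 15.53 on day 0, 12.69, 12.74 and 13.29 on days 2, 5 and 8, and 11.15, 11.41 and 11.05 on days 11, 16 and 18. Col6a1 was likewise higher on day 8 (13.44) than on days 2 and 5 (12.10 and 12.66). Col4a1 read 14.34 on day 0 and then 13.06, 12.89, 13.85, 13.21, 14.18 and 13.65, all within 1.5 of its start.

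Col8a2 was 9.39 on day 0 and undetected from day 2 (4.68) on, and Col18a1 went from 12.04 to 8.76 and then 9.56 to 10.02. Col17a1 was above 8 on day 8 only (8.23, between 5.40 and 5.69). Fibroblast marker means went down in steps, 9.74, 9.51, 9.22, 8.52, 7.57 and 7.68. On days 16 and 18 both arrays lay above all 6 F-class clones of the primary series for 10 of 21 collagens that could be compared, beside 25.5% of all such genes: Col1a1, Col2a1, Col4a1, Col4a2, Col5a1, Col6a1, Col6a2, Col7a1, Col15a1 and Col16a1. Only Col11a1 was below all 6, beside 27.2%. These arrays are 1 secondary line and their columns have another number format than those of the primary clones, so source and handling cannot be told apart.

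Clone 1 at day 30 had 10 detected collagens against 12 at day 16. None of the 12 was over 2-fold higher and 4 were over 2-fold lower (Col1a1, 8.17 to 7.15; Col6a1, 8.58 to 7.08; Col6a2, 6.34 to 5.28; Col18a1, 9.78 to 8.10), beside 1.72% and 2.24% of all genes. There was 1 array at each time, and Col2a1 was 8.30 and 8.41.

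In the Tet-Myc lines, Col7a1, Col17a1, Col18a1, Col9a2, Col23a1 and Col26a1 were higher and Col16a1 lower after 48 h without doxycycline. Of 19 tested, 6 were higher and 1 lower without the block for line, beside 15.3% of 10154 tested genes (7.38% higher, 7.92% lower). With the cell line as a block, which the labels support because each line was measured in both states, 10 were higher and 1 lower, beside 25.1% of all genes. The median of the tested collagens was 1.27, against -0.02 for all genes. Each group had 2 arrays, and 2 lines do not stand for all such lines.

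Col4a1 rose from 5.84 to 9.77 in line 1 and from 9.25 to 11.73 in line 2, and Col4a2 from 4.53 to 9.14 and from 8.25 to 10.53. The lines differed within each state, and neither passed without the block (limma adjusted p = 0.0725 and 0.0597). With it the rise was 9.23-fold for Col4a1 (limma adjusted p = 0.00393) and 10.9-fold for Col4a2 (limma adjusted p = 0.00799). Col4a2 was undetected in line 1 with doxycycline. Col4a5 (2.41-fold) and Col2a1 (1.91-fold) passed only with the block too.

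Col7a1 rose from 5.03 and 5.57 to 7.18 and 7.58, which was 4.24-fold (limma adjusted p = 0.00646). Col17a1 rose from 6.00 and 6.71 to 8.27 and 8.48, 4.06-fold (limma adjusted p = 0.00429), and its other 2 probes moved likewise. Col18a1 rose from 10.97 and 12.24 to 12.98 and 13.46, 3.06-fold (limma adjusted p = 0.0289), and the states did not overlap. Signals of 3 genes were undetected with doxycycline and detected without it: Col26a1 (4.68 and 4.71 to 6.02 and 6.21, at least 1.40-fold), Col9a2 (5.35 and 5.14 to 6.77 and 6.52, at least 2.03-fold) and Col23a1 (5.09 and 4.73 to 5.89 and 5.53, at least 1.06-fold). Col16a1 went the other way, from 6.19 and 5.77 to 5.10 and 5.18, at least 1.50-fold lower. Col18a1 lost its call without the second line's array after withdrawal (1.37), and its fold was 1.97 without the first and 4.75 without the second array with doxycycline. Col16a1 (-0.63 and -0.81) and Col23a1 (0.62 and 0.62) each lost theirs without either of 2 arrays, and with the spread of these 4 arrays alone none of the 7 passed.

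Not every collagen followed. Col1a1 was undetected on all 4 Tet-Myc arrays (4.66 to 4.78), as were Col3a1 and Col5a2. Col6a1 went up in line 1 (4.82 to 8.12) and down in line 2 (7.16 to 6.47). Col28a1 was 8.39 in line 1 without doxycycline, its highest value on any of the 51 arrays, and 4.69 in line 2. Of the pathway genes, 3 of 14 synthesis genes fell, beside 7.92% of all genes, P4ha2 (2.09-fold), P4ha1 (1.70-fold) and Colgalt1 (1.53-fold), and none rose. Of 10 degradation genes and inhibitors 2 rose, beside 7.38% of all genes, and none fell. These were the protease inhibitors Timp3 (5.24-fold, limma adjusted p = 0.00636) and Timp2 (1.90-fold). None of the 7 processing and 4 receptor genes tested was called. The pluripotent marker mean was 9.67 and 10.2 with doxycycline and 11.5 and 11.6 without it, and that of extraembryonic endoderm, a tissue rich in type IV collagen, 5.21 to 5.34 and 5.76 to 6.50, with 3 of 10 and 3 to 6 of 10 genes detected; their part was not tested.

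In F-class cells given HDACi, no collagen passed at 24 h. Limma called 0 of 19, beside 2.09% of all genes (0.965% higher, 1.12% lower), and 3 were under an unadjusted p of 0.05. With replicate as a block the count was 1 (Col5a1, beside 5.15% of all genes), and with the spread of the 2 groups alone 4. The shares of all genes at the unadjusted p and with that spread were not computed. At 48 h against 0 h, 5 were lower and 2 higher, beside 28.6% of all genes (14.5% lower, 14.2% higher), with a median of -0.24 against 0.02 for all. The replicate block gave 9 there (38.2% of all genes).

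Of the chains of types I, V and VI, Col1a1, Col5a1 and Col6a1 were called lower at 48 h. Without the block Col6a2 (-1.02, limma adjusted p = 0.0948) and Col5a3 (-0.53, limma adjusted p = 0.0887) did not pass. Col1a2 and Col5a2 did not enter the test. Col6a1 read 9.11 and 9.12 at 0 h, 8.14 and 7.99 at 24 h and 6.45 and 5.23 at 48 h, 9.67-fold lower at 48 h (-3.27 ± 0.81, limma adjusted p = 0.0212). Col1a1 read 7.29 and 8.18, then 6.67 and 7.28, then 5.70 and 5.38, 4.58-fold lower (limma adjusted p = 0.00241). Col5a1 read 10.24 and 10.40, then 9.50 and 9.51, then 8.99 and 8.67, 2.81-fold lower (limma adjusted p = 0.0117). For Col6a1 and Col5a1 the values at all 3 times did not overlap, and the 24 h arrays lay between. Col6a1 and Col1a1 were undetected on the second 48 h array, so their folds at 48 h are partly set against background signal. Col23a1 read 6.28 and 6.25, 6.58 and 6.20, then 4.87 and 4.77, undetected, (at least 1.74-fold lower), and Col15a1 was at least 1.11-fold lower.

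Col9a2 and Col26a1 were undetected up to 24 h and detected at 48 h. Col26a1 read 4.73 and 4.67 at 0 h, 4.61 and 4.59 at 24 h and 6.92 and 6.95 at 48 h, at least 2.88-fold higher (limma adjusted p = 0.000162). Col9a2 was 4.84 and 4.85, then 4.85 and 4.94, then 6.50 and 7.04, at least 2.57-fold higher (limma adjusted p = 0.000881). Both genes were also detected on both ESC arrays, both Tet-Myc arrays without doxycycline and some others. Col9a2 was detected on both fibroblast and both iPSC arrays, and Col26a1 was highest of all arrays in the secondary fibroblasts (8.26). Against 24 h, 4 of 19 passed (16.6% of all genes, 8.21% lower and 8.41% higher, or 5 with 25.1% of all genes under the block): Col1a1 2.71-fold and Col23a1 at least 1.90-fold lower, Col9a2 at least 2.32-fold and Col26a1 at least 2.60-fold higher. Col18a1 (11.21 and 11.11 at 0 h, 11.90 and 11.88 at 48 h) and Col4a1 (11.92 and 11.86, 11.81 and 11.48) did not pass.

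Of 14 synthesis genes 3 were lower at 48 h, beside 14.5% of all genes, with P3h3 4.79-fold and P4ha1 3.01-fold. Lox was 10.5-fold, Itga11 4.59-fold and Timp2 2.87-fold lower. These are single genes of the other lists, whose counts are not given here, so they do not describe those lists. The fibroblast marker mean was 6.77 and 6.97 at 0 h and 5.83 and 5.98 at 48 h, and the pluripotent mean 9.02 and 10.8 at 0 h and 12.4 and 12.5 at 48 h. The epithelial mean was 8.02 to 8.91 at 0 h and 11.0 to 11.1 at 48 h, and that of 4 smooth muscle genes 7.60 to 7.75 and 5.87 to 6.49; their part was not tested. Col6a1 (-2.66 to -3.28) and Col5a1 (-1.33 to -1.57) lost their calls against 0 h without the first or the second 0 h array or the second 48 h array. Col15a1 lost its call without either 48 h array (-0.90 and -0.94). Against 24 h, Col1a1 lost its call without either 48 h array or the second 24 h array (-1.13 to -1.60). The fold of Col6a1 was 14.8 without the first 48 h array, set against an undetected signal, and 6.32 without the second 48 h array.

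**Figure D5:**
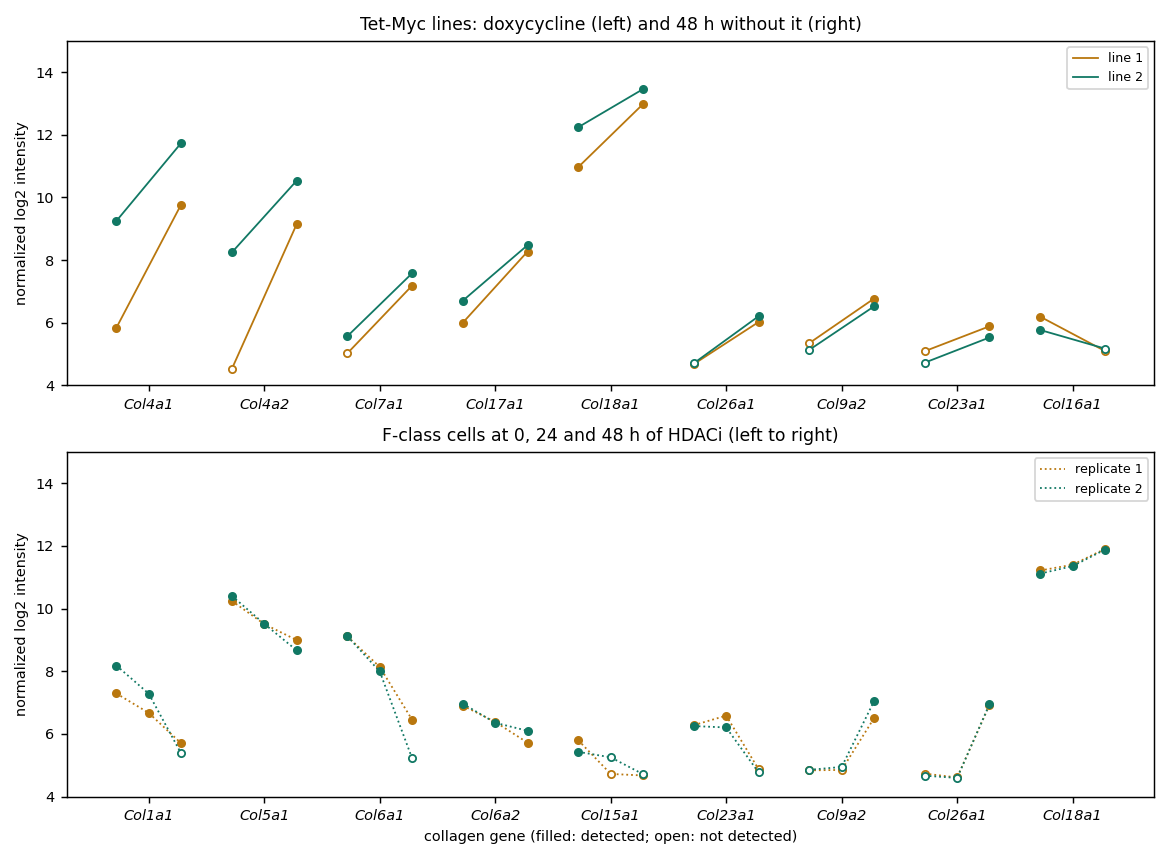
Normalized log2 intensity of 9 collagen genes in either Tet-Myc line before and after withdrawal of doxycycline (top) and of 9 in F-class cells at 0, 24 and 48 h of HDACi (bottom), 1 line per cell line or replicate, with filled points detected and open points not. Col4a1, Col4a2, Col7a1 and Col17a1 rise in both Tet-Myc lines, and under HDACi Col1a1, Col5a1 and Col6a1 step down while Col9a2 and Col26a1 appear at 48 h.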

How the data were processed

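Normalized values of 51 arrays were computed from the intensities that the authors deposited without normalization (array medians 108.7 to 212.1). The authors also deposited detection p-values and a table of scaled intensity values with a common median, which served as an alternative; its software and scaling method were not stated in the labels or headers. Columns of the deposited tables are written in 2 number formats, shorter for the primary fibroblasts, the primary clones and 1 ESC array and longer for the others, which may mark separate exports.

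The neqc function of limma 3.58.1 (R 4.3.3) corrected background from the detection p-values, added an offset of 16 and applied quantile normalization, giving log2 values. Of 25697 probes, 23978 have 1 gene symbol and 1719 none. Each gene is represented by the probe with the highest mean. Genes detected (p under 0.05) on at least 2 arrays were tested with limma in 2 fits, 1 for fibroblasts, clones, iPSC and ESC (11046 genes) and 1 for Tet-Myc and HDACi (10154 genes), with Benjamini-Hochberg adjustment, and called under 0.05. Bounds use, on each array, the lowest signal among detected probes. The fit was tested on simulated data.

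Tet-Myc arrays are paired by cell line (correlation of deviations 0.503), so the block is printed beside that result. HDACi replicate numbers were not taken as pairs (correlations 0.259, 0.091 and 0.078).

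Genes were named as follows: all members by class, with full values for those called in the F-class against C-class, Tet-Myc or HDACi comparisons, those with the 10 highest fibroblast means, and the 8 largest folds in each direction against fibroblasts or ESC; pathway genes where called. The members and lists were chosen with earlier results of these data known. The number of arrays limits the precision. Promoter sequences are from RefSeq (GRCm38.p6). Counts that could change with normalization, offset, filter, probe choice, number format, groups in the fit, block and single arrays were recomputed.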

Additional observations from a re-analysis of the deposited data

How the results depend on the processing

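Of 1789 recomputed values for 143 called gene results, 1659 kept direction and call, 126 kept direction only and 4 changed sign. Of 150 recomputed counts, 135 stayed within 1.5 times the reported count. Normalization, offset, filter and probe choice moved none of the counts by more. Signs changed when 1 array was left out: Col26a1 in iPSC against fibroblasts was -2.911 without the primary and 0.01405 without the secondary fibroblasts. Against ESC, without the second and the first ESC array, Col1a2 was -2.833 and 0.06023 in F-class clones and -2.824 and 0.06928 in C-class clones, and Col3a1 was -2.451 and 0.3677 in C-class clones. No C-class clone was left out in any such fit, so ranges for C-class comparisons come from arrays of the other group. Leaving out 1 array at a time gave 19 to 25 collagens called for F-class against fibroblasts, 20 to 25 for C-class, 13 to 17 for iPSC, 18 to 21 for ESC, 5 to 7 for F-class against C-class, 8 to 16 for F-class against ESC, 6 to 12 for C-class against ESC and 1 to 6 for iPSC against ESC. It gave 5 to 9 for Tet-Myc, 4 to 7 for HDACi at 48 h against 0 h and 3 to 4 against 24 h. With only the 2 groups compared in the fit, 0 collagens passed for iPSC against ESC, 0 for Tet-Myc, 4 for HDACi at 24 h against 0 h and 9 at 48 h against 24 h. The shares of all genes in these fits were not computed. With number format as a term, 4 passed for iPSC against ESC. With the replicate block, 11 passed for Tet-Myc, where lines pair the arrays, and 1 for HDACi at 24 h; for HDACi the samples share only a number, and the block gave 9 at 48 h against 0 h and 5 against 24 h. Fewer arrays or groups leave less information on the spread; other causes were not tested. Col16a1 and Col23a1 in Tet-Myc also lost their calls under quantile normalization without background correction, under the authors' scaled values and with an offset of 50. Under both of those normalizations Col9a2 in C-class clones against fibroblasts, Col3a1 in C-class clones against ESC and Col1a1 at 48 h against 24 h of HDACi lost theirs. With only the 2 groups in the fit, calls against fibroblasts ended in iPSC for Col8a2, Col10a1, Col26a1 and Col27a1 and in ESC for Col1a2, Col8a2, Col9a2, Col10a1, Col14a1, Col15a1 and Col27a1. Genes near background, such as Col5a2, Col9a2 and Col26a1 in clones, have folds limited by background signal, so differences there were not detectable below the bounds given.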
